A study of Mus musculus with 4 samples.

Results

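The nuclei described here were GABAergic neurons of the posterior substantia innominata that carried transcripts of Prkcd, the gene of protein kinase C delta. They were selected on raw counts of unique molecular identifiers (UMIs), each of which stands for 1 captured transcript. A barcode was taken when it held at least 3 UMIs of Prkcd, at least 1 of Gad1 and Gad2 together, and at least 2 of the neuronal genes Syt1, Snap25 and Rbfox3 together. It could hold at most 2 UMIs each of Drd1, Drd2, Sst and Moxd1 and none of Slc17a6 or Slc17a7. Of 38868 nuclei with 500 to 8000 genes and under 5% mitochondrial counts, 208 met these conditions. They are called Prkcd nuclei, and 67 came from male 1, 87 from male 2, 30 from female 1 and 24 from female 2. They were compared with the other 16383 nuclei that held at least 2 UMIs of Gad1 and Gad2 together.

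The tissue was microdissected from wild-type male mice and from females of the same age, 8 weeks, and profiled by droplet single-nucleus RNA sequencing. Neither group carried a transgene or received a treatment that the labels name. There were 2 libraries of each sex, and the labels give neither the number of animals behind a library nor any statement that same-sex libraries were made from different mice. The p-values of the comparison between the sexes therefore measure the spread between these libraries. Where library is a term of the fit, they measure how far the difference within a library varied from library to library. Either spread may be technical.

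Protein kinase C delta is a serine and threonine kinase that is switched on by diacylglycerol and does not need calcium, unlike the classical members of its family. In the central amygdala and the neighbouring extended amygdala, to which the substantia innominata is joined, Prkcd marks GABAergic neurons that lie among Sst neurons. Those neurons are known for work on threat learning, pain and the suppression of feeding, and many also carry the receptor of calcitonin gene-related peptide.

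The deposited male libraries held 158132452 and 144035342 UMIs and the female ones 53098268 and 53679351. Software version, gene list and depth changed together with sex, so that a male and female difference cannot be told apart from them. The male libraries shared 23 barcodes and the female ones 35, with 0 shared between the sexes. Female 2 stood apart from the other libraries in what its Prkcd nuclei contained, as set out below. Over genes, the SD of the log2 ratio between the summed Prkcd nuclei came to 0.343 between the male libraries and 1.03 between the female ones. The female sums held fewer UMIs, 248218 and 314591 against 1321391 and 1632545 in the males. The part of counting error in these SDs was not tested, and such an SD cannot tell which library of a pair differed.

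Prkcd was a sparse transcript. It reached 3 UMIs in 247 of the nuclei kept, and those that failed another condition most often held a UMI of Slc17a6 or Slc17a7 (20 nuclei) or lacked both Gad1 and Gad2 (13 nuclei). The limits on genes and mitochondrial counts together removed more such barcodes from the males, where 156 and 145 barcodes reached 3 UMIs and 86 and 99 of them were kept, than from the females, with 37 and 29 barcodes and 34 and 28 kept. The median Prkcd nucleus held 4 Prkcd UMIs in each male, 3 in female 1 and 3.5 in female 2, and the highest held 21. The Prkcd nuclei accounted for 31.8%, 42.1%, 20.2% and 20.3% of the Prkcd UMIs of all nuclei kept, in the order male 1, male 2, female 1 and female 2. Among the other GABAergic nuclei, 15560 held 0 Prkcd UMIs, 613 held 1, 185 held 2 and 25 held 3 or more.

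The summed Prkcd nuclei held 1321391, 1632545, 248218 and 314591 UMIs in male 1, male 2, female 1 and female 2. Levels are given as CPM (counts scaled to a fixed library total) of these sums after TMM scaling. A single UMI thus stood for 0.78 and 0.64 CPM in the males but for 3.84 and 2.90 CPM in the females, and values near these limits rest on 1 transcript. Nuclei with 3 or more Prkcd UMIs were also deeper than the rest. Their median UMI counts were 19006, 15283, 7071.5 and 10364.5, against 13348.5, 12951, 6071 and 6490.5 in the other GABAergic nuclei.

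The genes of the rule are a description and no finding. Prkcd stood at 235, 269, 492 and 295 CPM in the Prkcd nuclei and at 5.62, 5.36, 6.54 and 4.55 CPM in the others. Gad2, the gene of the smaller GABA-synthesizing enzyme, stood at 311, 318, 230.5 and 348 CPM against 271, 272, 341 and 274 CPM. Slc32a1, the vesicular GABA transporter, was not part of the rule. It stood at 34.4, 28.8, 11.5 and 20.3 CPM in the Prkcd nuclei and 40.8, 43.3, 15.9 and 52.3 CPM in the others, a log2 difference of -0.56 (adjusted p = 0.0515 by edgeR). The transcript was thus detected in the summed Prkcd nuclei of each library, below the other nuclei in each. The female values rest on few UMIs, and no background level from other cells was set beside them.

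To determine which genes set the Prkcd nuclei apart, the sums of the 2 populations were compared within libraries by edgeR's quasi-likelihood test, with library as a term and Benjamini-Hochberg adjustment over all 15510 genes tested outside the rule. The Prkcd nuclei were higher in 887 genes, or 5.72% of those tested, and lower in 1058, or 6.82%. The median log2 difference over all genes tested was -0.05. Among called genes with 1 direction in all 4 libraries and a mean of at least 20 CPM in the higher population, those that rose furthest included Papln, which encodes an extracellular matrix protein, the phosphatase gene Cdc14a, the transcription factor gene Sox5 and the proprotein convertase gene Pcsk6. Under the same limits, those that fell furthest included the collagen gene Col19a1, the synaptic adhesion gene Il1rapl2, the transcription factor gene Sox6 and the kainate receptor gene Grik1. The count of genes called moved from 1945 to 1110 without male 1 and to 1144 without male 2, against 2602 without female 2, and DESeq2 called 1208. Without the library term, 633 genes were called.

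Sox5 (chr6:143828425-144781977 in GRCm38, minus strand), a SoxD factor that shapes neuronal identity in the developing forebrain, was among the strongest. Its level was 1063, 944, 949 and 411 CPM in the Prkcd nuclei of male 1, male 2, female 1 and female 2 and 143, 136, 123 and 73.7 CPM in the others. The populations did not overlap, and the lowest value of the Prkcd nuclei was that of female 2. The log2 difference was 2.79 ± 0.13 SE (adjusted p = 7.81e-26 by edgeR). Sox6, another SoxD gene, went the other way, with 68.0, 32.6, 65.3 and 5.79 CPM in the Prkcd nuclei and 279, 260, 303 and 178.5 CPM in the others (-2.60 ± 0.18 SE, adjusted p = 7.45e-18 by edgeR). Sox13 rose as Sox5 did (2.98 ± 0.32 SE, adjusted p = 4.37e-11 by edgeR).

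Cdc14a (chr3:116272553-116424032, minus strand) stood at 162, 145 and 173 CPM in the first 3 libraries and 55.0 CPM in female 2, against 6.84 to 14.1 CPM in the others (log2 difference 3.47 ± 0.16 SE). Papln (chr12:83763634-83792382, plus strand) reached 60.2, 45.5, 96.0 and 14.5 CPM, where the other nuclei held at most 3.01 CPM (4.23 ± 0.28 SE). Pcsk6 (chr7:65861734-66050386, plus strand) reached 227, 147, 219 and 119 CPM against 15.9 to 28.0 CPM (2.89 ± 0.14 SE). In all 3 genes each library's Prkcd nuclei lay above every library's other nuclei, and in each the lowest of the 4 came from female 2.

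The remaining genes named by size among those higher in the Prkcd nuclei of all 4 libraries had log2 differences from 2.39 to 3.96. They included Sh3d21, Vipr2, Sox13, the membrane protease gene Tmprss7, Arhgap6, the exchange factor gene Spata13, the dynein gene Dnah5, Tll2, Calcrl, Fam107b, Atp10a, Mob3b, the transcriptional coactivator gene Eya4, Eepd1 and Tnfaip8. On the lower side, Col19a1 had values of 1.56, 6.40, 0 and 0 CPM, against 23.4 to 40.8 CPM in the others (-3.30 ± 0.34 SE, adjusted p = 1.89e-11 by edgeR). Rnf152, Lypd6b, Ano5, Il1rapl2, the adhesion gene Cntnap3, Grik1, the secreted ligand gene Tafa1 and the corticotropin-releasing hormone receptor gene Crhr1 fell by 2.19 to 2.82 on the log2 scale. Of these 30 genes, none lost its call under any alternative that was run. They were picked for large folds in these same sums, so this is no independent support.

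**Figure D1:**
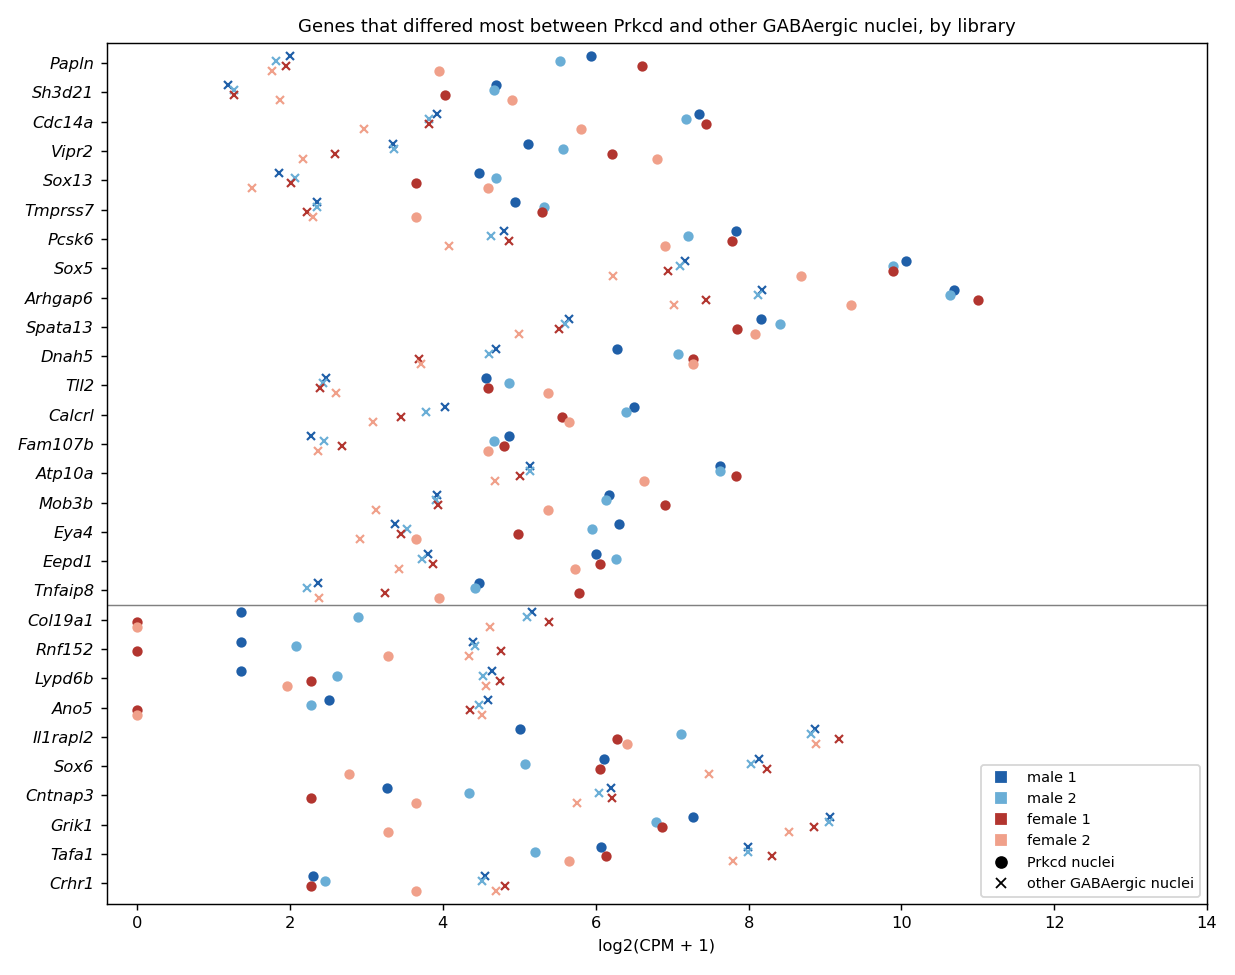
Levels of 29 of the 30 genes named by size, as log2(CPM + 1), in the Prkcd nuclei (circles) and the other GABAergic nuclei (crosses) of each library (colours); the upper 19 were higher and the lower 10 lower in the Prkcd nuclei. Sox5 circles run from 411 to 1063 CPM and its crosses from 73.7 to 143 CPM.

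**Figure D2:**
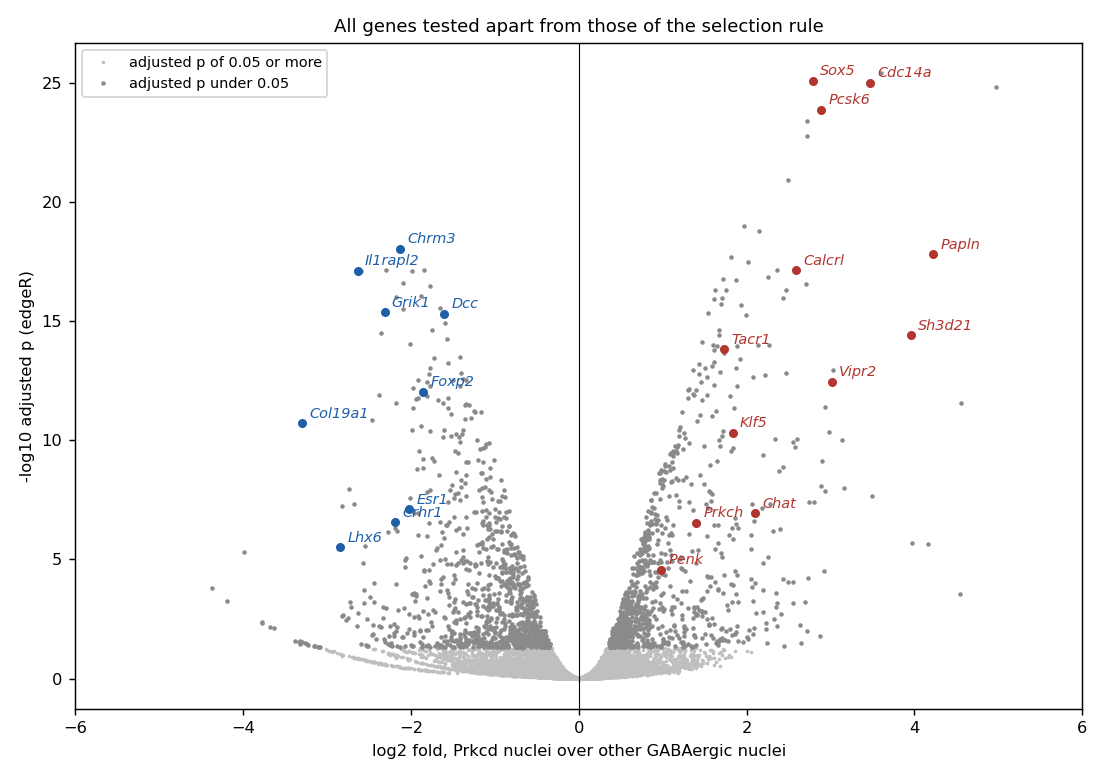
Each point is 1 gene tested outside the rule, with its log2 difference between Prkcd and other GABAergic nuclei (x axis) and the -log10 of its adjusted p by edgeR (y axis); dark points had an adjusted p under 0.05. The coloured points are genes described in the text, among them Sox5 at 2.79 and Chrm3 at -2.12, and 54 genes beyond 6 on the x axis are not drawn.

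The counts in the gene lists below stand beside the shares over all genes tested in this comparison, 5.72% higher and 6.82% lower. Genes known from the central and lateral extended amygdala moved both ways. Of 24 such genes, 23 were tested, 8 were higher and 5 lower in the Prkcd nuclei, and the list's median log2 difference was 0.04. Calcrl, whose product is the receptor of calcitonin gene-related peptide, stood at 89.8, 83.2, 46.1 and 49.2 CPM against 15.3, 12.7, 9.93 and 7.45 CPM in the others (2.59 ± 0.18 SE, adjusted p = 7.13e-18 by edgeR). Its values in the males were higher than in the females, and the lowest lay above all values of the other nuclei. Ramp1, which encodes the partner protein that gives this receptor its ligand, stood at 39.8, 46.7, 80.7 and 49.2 CPM against 16.8 to 32.4 CPM (1.31 ± 0.18 SE).

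Vipr2, the gene of a receptor for vasoactive intestinal peptide, stood at 33.6, 46.7, 73.0 and 110.1 CPM against 3.51 to 9.24 CPM (3.01 ± 0.28 SE). Here the females held the higher values. Ezr, which encodes the membrane linker ezrin, stood at 22.7, 20.5, 3.84 and 14.5 CPM, of which the value of female 1 is 1 UMI, against 1.42 to 2.25 CPM (3.14 ± 0.34 SE). Ppp1r1b, the gene of the dopamine-regulated phosphatase inhibitor DARPP-32, rose by 1.47 on the log2 scale, Rgs9 by 0.68 and the homeobox gene Zfhx3 by 0.86.

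Penk, the gene of the enkephalin precursor, was called higher (log2 difference 0.98 ± 0.18 SE, adjusted p = 2.73e-05 by edgeR), but not in each library. The male Prkcd nuclei had 213 and 258 CPM and the other male nuclei 80.2 and 89.0 CPM. The female Prkcd nuclei had 30.7 and 49.2 CPM and the other female nuclei 33.9 and 75.1 CPM. The call was lost without male 1, without male 2, with DESeq2 and without the library term. Cyp26b1, which clears retinoic acid, reached 15.6 and 17.9 CPM in male Prkcd nuclei, where the others had 4.05 and 3.65 CPM, and was at 1 UMI in each female. Its call was lost without male 1 and without male 2. The genes that fell were Crhr1 and the transcription factor genes Foxp2 (-1.85), Tshz1 (-1.57), Nr2f2 (-1.21, without a call within the members' range of UMIs) and Ebf1 (-0.93). Foxp2 held 78.9, 80.7 and 134 CPM in 3 libraries and 2.90 CPM in female 2, against 144 to 299 CPM.

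Markers of other GABAergic classes were more often called lower than higher. Of 23 tested, 10 fell and 1 rose, with a median log2 difference of -0.64. Lhx6, the factor of neurons from the medial ganglionic eminence, stood at 3.12, 1.28, 3.84 and 0 CPM against 10.6 to 16.1 CPM (-2.84 ± 0.46 SE). Reln, the gene of a secreted glycoprotein, fell by 2.18 on the log2 scale, and Piezo2, a mechanically gated channel gene, by 2.34, the latter without a call when male 2 was left out. Chodl, usually a mark of long-range Sst and Nos1 neurons, was the gene that rose, with 37.5, 24.97, 7.68 and 8.69 CPM against 2.28 to 6.11 CPM (2.19 ± 0.30 SE). Nos1 itself fell by 0.93, with the value of female 2 above that of its other nuclei. Pvalb and Cort were at 0 in the Prkcd nuclei of all 4 libraries.

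Other genes of protein kinase C and of related kinases were called only in the higher direction. Of 13 such genes tested apart from Prkcd, 4 were higher and 0 lower, with a median of 0.10. Prkch, whose product, like that of Prkcd, needs no calcium, stood at 54.7, 55.7, 34.6 and 14.5 CPM against 16.7, 15.4, 31.1 and 12.3 CPM (1.40 ± 0.20 SE, adjusted p = 2.81e-07 by edgeR). The gap was wide in the males and narrow in the females. Prkd1, a related kinase gene that protein kinase C acts upon, rose by 1.10, Prkce by 0.50 and the classical Prkcb by 0.38. The calls of Prkce and Prkcb were lost without male 1, and that of Prkcb also without male 2, without female 2 and with DESeq2. Prkcb further lost its call with Prkcd at 5 or more UMIs and within the members' range of UMIs. The same held with the highest doublet scores removed and with no filter on low counts. Prkca, the classical member that was not called (0.27, adjusted p = 0.339 by edgeR), stood at 212, 254 and 388 CPM in 3 libraries and 692 CPM in female 2.

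In the wider pathway, 46 genes that make, break down or follow diacylglycerol and calcium signals were tested, 7 rose and 8 fell, with a median of -0.11. Those that rose included the phospholipase genes Plce1 (1.05) and Plcb1 (0.53), the diacylglycerol kinase gene Dgkg (1.31) and Rgs4, a brake on G protein signalling (1.71). Dgkg stood at 534, 551, 376 and 472 CPM against 169 to 212 CPM, with no overlap between the populations. The genes that fell included the exchange factor genes Rasgrp2 (-1.55), Rasgrf2 (-1.35) and Rasgrf1 (-1.14) and Itpr1, the receptor through which inositol trisphosphate releases calcium (-0.85). The call of Plcb1 was lost without male 1 and with Prkcd at 5 or more UMIs.

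Among 25 neuropeptide genes and their processing partners tested, 3 rose and 4 fell, with a median of -0.40. Cartpt, the precursor of an appetite-suppressing peptide, stood at 21.1, 19.8, 3.84 and 8.69 CPM against 1.76 to 5.86 CPM (1.74 ± 0.33 SE), and its call was lost without male 1 and without male 2. Nxph1, a secreted neurexin ligand, stood at 116, 123, 192 and 17.4 CPM against 286 to 549 CPM (-2.18 ± 0.16 SE).

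The receptors for peptides and hormones gave 6 higher and 7 lower genes of 44 tested, with a median of -0.33. Tacr1, the substance P receptor gene, stood at 177, 134, 92.2 and 148 CPM against 48.3, 48.9, 38.4 and 29.7 CPM (1.74 ± 0.15 SE, adjusted p = 1.47e-14 by edgeR). Ghr, the growth hormone receptor gene, stood at 552, 523, 407 and 298 CPM against 147 to 203 CPM (1.23 ± 0.12 SE). In both genes the populations did not overlap. Among the lower ones, Crhr1 held 3.84 to 11.6 CPM against 21.8 to 27.0 CPM, and Npy5r, a neuropeptide Y receptor gene, fell by 1.74, without a call when male 1 was left out or within the members' range of UMIs.

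Receptors for amines, acetylcholine, adenosine and cannabinoids were more often called lower than higher, with 1 higher and 7 lower of 29 tested and a median of -0.69. The muscarinic receptor gene Chrm3 stood at 98.4, 137, 115 and 125 CPM against 489, 472, 630 and 529 CPM (-2.12 ± 0.14 SE, adjusted p = 8.92e-19 by edgeR). Each of the serotonin receptor genes Htr7 (-1.98), Htr1f (-1.80), Htr4 (-1.61) and Htr2c (-1.31) was lower in 4 of 4 libraries. Cnr1, the cannabinoid receptor gene, was the one that rose, with 160, 187, 115 and 86.9 CPM against 32.9 to 63.1 CPM (1.47 ± 0.14 SE).

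Fast transmitter receptors moved both ways. Of 21 GABA and glycine receptor genes, 4 rose and 8 fell, the first including Gabra2 (0.47) and Gabrg1 (0.64) and the second the glycine receptor genes Glra1 (-1.55) and Glra2 (-1.09). Of 24 glutamate receptor genes, 3 rose and 12 fell. Grik1 stood at 153, 109, 115 and 8.69 CPM against 369 to 535 CPM (-2.31 ± 0.18 SE), and Grin2d (-1.88), Grm8 (-1.47) and Grin3a (-1.38) were lower as well, whereas Grid1 rose by 0.52. The call of Gabra2 was lost without either male, and that of Grid1 without male 1.

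Of 38 potassium channel genes and subunits tested, 5 rose and 16 fell. Kcnip2, which modifies A-type currents, rose by 1.17 and Kcnq5, which carries M-type current, by 0.98, while Kcnmb2 (-1.91), Kcnh1 (-1.56) and the inward rectifier gene Kcnj6 (-1.52) fell. Of 30 sodium, calcium and related channel genes, 8 rose and 4 fell. Ano3, an anoctamin gene, rose by 1.02 and the accessory gene Cacna2d3 by 0.89, while the T-type calcium channel genes Cacna1g (-1.66) and Cacna1i (-1.58) fell together, each in 4 of 4 libraries.

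Transcription factors of patterning and identity were more often lower, with 8 higher and 22 lower of 54 tested and a median of -0.40. Besides Sox5, Klf5 rose, with 44.5, 49.3, 46.1 and 46.3 CPM against 10.9 to 14.2 CPM (1.84 ± 0.20 SE). Sp9, a factor of striatal and olfactory neurons, rose by 1.57 but lost its call without male 2. Npas1, which marks pallidal neurons, had values of 0.78, 0.64, 0 and 0 CPM against 7.499 to 17.3 CPM. Nfib (-1.94), Satb1 (-1.81) and Dlx1 (-2.15) fell too, the last without a call when male 2 was left out or with Prkcd at 5 or more UMIs.

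Adhesion and guidance genes were more often called lower than higher, with 6 higher and 40 lower of 70 tested and a median of -0.54. The netrin receptor gene Dcc stood at 501, 465, 611 and 533 CPM against 1605, 1604, 2036 and 1202 CPM (-1.60 ± 0.12 SE, adjusted p = 4.68e-16 by edgeR). Il1rapl2 (-2.63), Pcdh11x (-1.72), Sema3a (-1.62) and Slit2 (-1.62) fell further still. Epha4, an ephrin receptor gene (1.11), and Slit3 (1.00) were the strongest of those that rose.

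Signalling genes of striatal projection neurons were more often called higher than lower, with 13 higher and 4 lower of 29 tested and a median of 0.15. The 4 that fell were Itpr1, Rarb, Foxp1 and Phactr1. The list summed to 6803, 6895, 6791 and 6141 CPM, against 6011, 5769, 7852 and 4889 CPM in the others, so that its sum was lower in female 1. Strip2 stood at 195, 199, 92.2 and 66.6 CPM against 18.1 to 37.2 CPM (2.26 ± 0.16 SE), and Rgs14 (2.20), the actinin gene Actn2 (1.68), Foxo1 (1.57) and the phosphodiesterase gene Pde7b (1.36) rose with it. Of 20 calcium-binding and calcium-dependent genes, 4 rose and 5 fell, among them Hpcal1 (1.37), Camk4 (1.19) and Camk2d (0.83) on the higher side. Of 19 immediate early genes, 2 rose. Junb stood at 49.2, 80.0, 11.5 and 17.4 CPM against 19.3, 19.8, 6.5 and 9.91 CPM (1.56 ± 0.20 SE). Fos was higher in the males and not in the females and lost its call without either male.

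Gonadal steroid signalling genes were lower in part. Of 10 tested, 5 fell and 2 rose, with a median of -0.69. Esr1, the gene of oestrogen receptor alpha, stood at 7.81, 6.40, 3.84 and 8.69 CPM against 28.9, 27.6, 27.4 and 28.5 CPM (-2.02 ± 0.28 SE, adjusted p = 7.70e-08 by edgeR). It was lower in 4 of 4 libraries. Esr2 (-2.05), the aromatase gene Cyp19a1 (-2.25) and Greb1 (-1.34) were called lower as well, at a few UMIs each, and lost their calls without either male and with DESeq2. Nr3c2, the mineralocorticoid receptor gene, rose by 0.76. Of the genes named from the lists, those whose calls ended without the library term were Ppp1r1b, Rgs9, Foxp2, Tshz1, Nr2f2, Penk, Prkch, Prkd1, Prkce, Prkcb, Plcb1, Rasgrp2, Cartpt, Npy5r, Gabra2, Gabrg1, Glra1, Grid1, Grin2d, Grm8, Kcnq5, Cacna2d3, Sp9, Dlx1, Nfib, Chat, Slc5a7, Esr2, Cyp19a1, Greb1, Nr3c2, Junb and Fos.

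Markers of other cells were looked for in the same sums. None of 7 oligodendrocyte, 7 microglial, 5 oligodendrocyte precursor or 4 vascular genes tested was called by edgeR, and 2 of 7 astrocyte genes were lower. The 7 oligodendrocyte genes summed to 191, 126, 492 and 351 CPM in the Prkcd nuclei and 214, 220, 479 and 357 CPM in the others. The other GABAergic nuclei themselves included groups led by glial genes, described below. In male 1, a group led by oligodendrocyte genes held 399 nuclei, of which 5 were Prkcd nuclei. Similar levels thus cannot show that the Prkcd nuclei lacked glial transcripts. Cholinergic markers differed. Chat, which makes acetylcholine, stood at 11.7, 19.8, 53.8 and 246 CPM against 9.14, 9.39, 13.6 and 14.4 CPM, and Slc5a7, the choline transporter gene, at 13.3, 31.4, 11.5 and 127 CPM against 8.88, 8.90, 9.18 and 11.02 CPM. Both were called higher (2.10 ± 0.30 SE and 1.90 ± 0.28 SE). Without female 2 the log2 differences were 1.04 and 1.26. With DESeq2 the call of Chat was lost.

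To describe how the Prkcd nuclei lay among the GABAergic nuclei, each library was clustered by the Leiden method on variable genes that left out the genes of the rule. The clusters are described without a test, since their genes were the ones clustered. In each library the cluster with the most Prkcd nuclei had Sox5, Pcsk6, Eya4, Ankfn1 and Arhgap6 among its leading genes. It held 43 of 67 Prkcd nuclei in male 1 (64.2%), 62 of 87 in male 2 (71.3%), 20 of 30 in female 1 (66.7%) and 7 of 24 in female 2 (29.2%). Its level of Prkcd, the gene that chose the members, was 101, 115, 273 and 102 CPM, where the next cluster had 35.7, 33.1, 103 and 60.8 CPM and the median cluster 1.57 to 2.80 CPM. The Prkcd nuclei were 21.6%, 27.6%, 27.8% and 10.4% of its nuclei. With coarser clusters, at a resolution of 0.5 in place of 1, the cluster with the most Prkcd nuclei held 65.7%, 71.3%, 66.7% and 45.8% of them, which made up 7.46%, 27.1%, 5.71% and 3.06% of its nuclei. Its Prkcd level was then the highest in both males, the second in female 1 (62.2 CPM, against 103 CPM in another cluster) and the third in female 2 (27.8 CPM, against up to 73.7 CPM). At resolution 1, of the nuclei of the leading cluster that were not selected, 41.7%, 35.0%, 30.8% and 18.3% held a Prkcd UMI.

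The remaining Prkcd nuclei were spread over clusters of other kinds. Clusters led by Vipr2 and Dnah5 held 5, 10, 3 and 4 of them, and clusters led by Chat and Slc5a7 held 2, 2, 1 and 6. Clusters led by Pde1c and Rarb, with Drd2 or Strip2 beside them, held 1 in male 1, 2 in female 1 and 4 in female 2. Other clusters were led by glial genes. Those led by oligodendrocyte genes such as Mobp held 5 in male 1, 6 in male 2 and 1 in female 2, those led by the astrocyte gene Slc1a3 held 3, 5, 1 and 1, and those led by the microglial gene Inpp5d held 5, 1, 3 and 1. Clusters led by Pdgfra held 3 in male 1 and 1 in male 2. Of the Prkcd nuclei, 2, 7, 1 and 2 were among the highest doublet scores, and removing such nuclei from both populations left 1716 genes called. What part glial transcripts or joined nuclei play in these Prkcd nuclei was not tested.

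**Figure D3:**
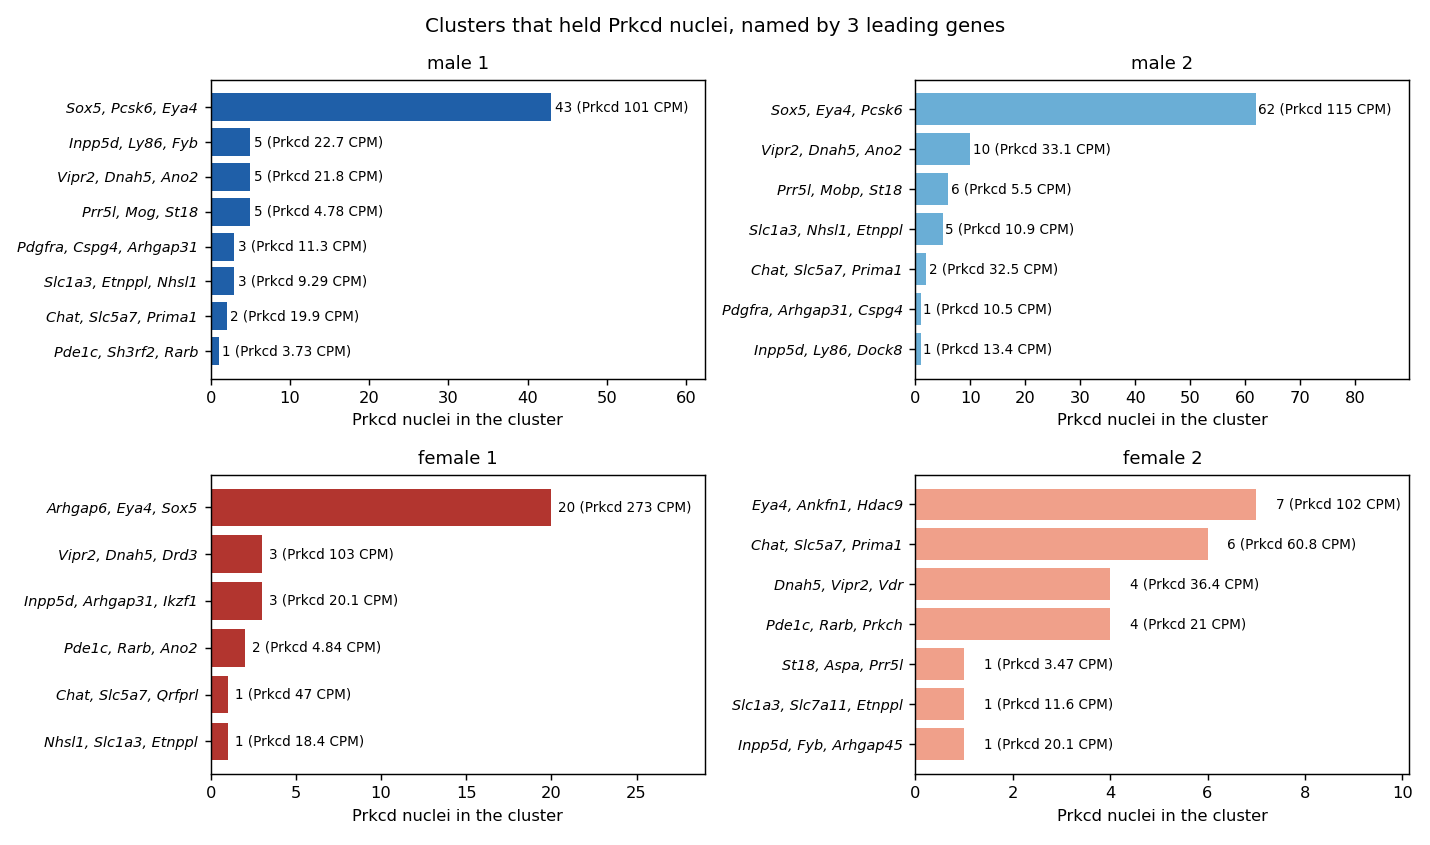
Number of Prkcd nuclei (bars) in each cluster of GABAergic nuclei that held any, by library, with 3 leading genes beside each bar and the Prkcd level of the whole cluster after it. The cluster with Eya4 among these leading genes holds 43, 62, 20 and 7 of them.

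Within the Prkcd nuclei, several genes lay on 1 side of this division (here CPM are counts over the UMIs of each subset, unscaled). Vipr2 had 1.14, 1.97, 0 and 0 CPM in members of the leading cluster and 94.4, 115, 156 and 139 CPM in the Prkcd nuclei elsewhere. Chat stood at 0, 0.985, 0 and 0 CPM inside and at 33.7, 48.6, 115 and 311 CPM outside. Nearly all Vipr2 and Chat UMIs of the Prkcd nuclei thus lay outside the leading cluster.

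Sox5 was higher inside, with 1277, 1133, 1556 and 1322 CPM against 544, 525, 411 and 319 CPM outside, and so was Pcsk6, with 268, 160, 332 and 409 CPM against 124, 110.1, 123 and 87.9 CPM. Nuclei of the leading cluster that were not selected lay between these in each library, at 673 to 955 CPM for Sox5 and 138 to 217 CPM for Pcsk6. Calcrl lay on both sides, at 82.2, 101, 63.2 and 48.1 CPM inside and 96.6, 45.3, 32.9 and 54.9 CPM outside. Mobp, an oligodendrocyte gene, stood at 2.28, 0, 31.6 and 24.0 CPM inside and 56.2, 22.7, 98.7 and 95.2 CPM outside.

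**Figure D4:**
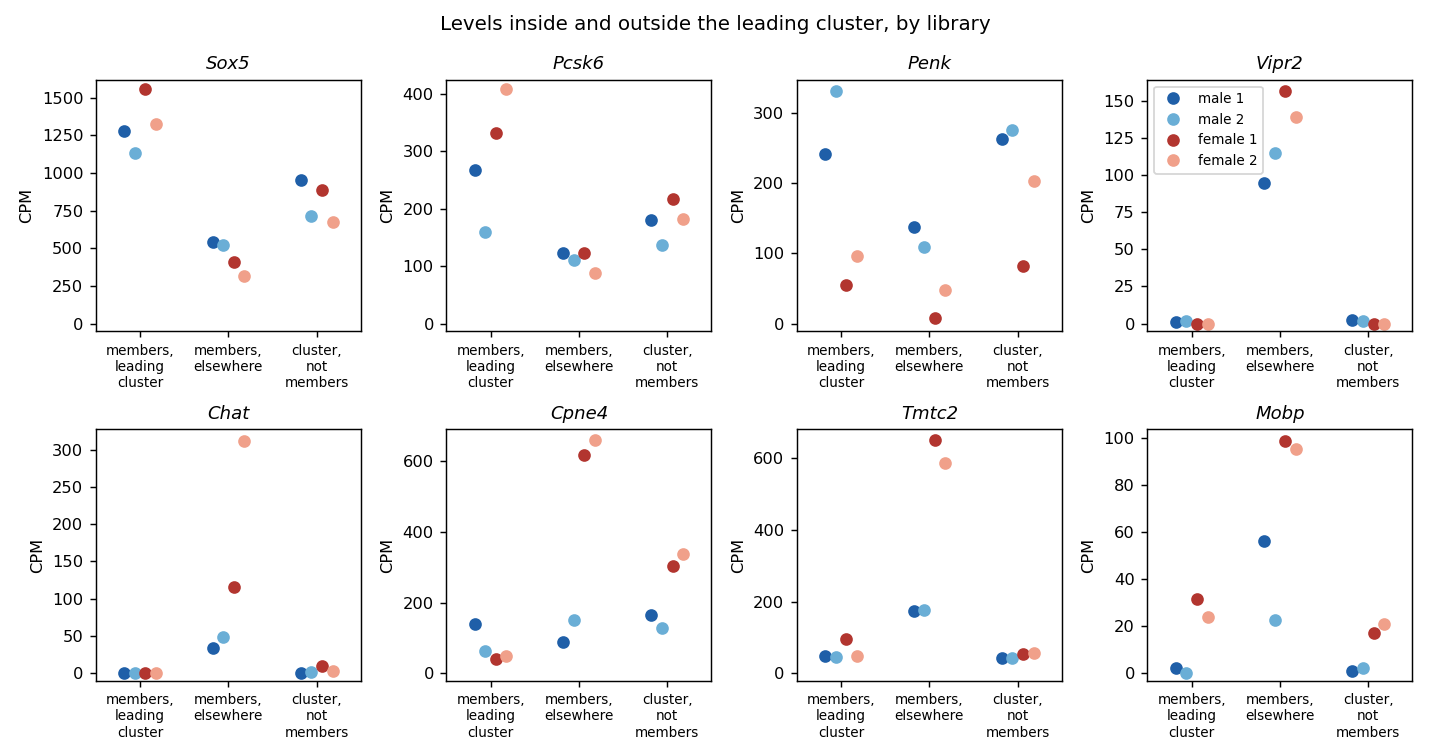
Levels (CPM, linear axis) of 8 genes in the Prkcd nuclei inside the leading cluster, in those elsewhere and in the nuclei of that cluster that were not selected, with 1 point per library. Vipr2 and Chat are near 0 inside the cluster, and Penk is lower in both females inside it.

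The share of nuclei with a UMI of a gene depends on depth, so each nucleus was thinned to 3000 UMIs, which left out 1 Prkcd nucleus, of female 1. A Sox5 UMI was then found in 79.1%, 79.3%, 75.9% and 50.0% of Prkcd nuclei (86.6%, 87.4%, 83.3% and 50.0% before thinning), against 18.6%, 18.6%, 15.8% and 12.6% of the other GABAergic nuclei. In nuclei with oligodendrocyte markers, taken as a background, the share was 19.3%, 15.8%, 34.2% and 16.4%, over the 114, 101, 79 and 55 such nuclei with 3000 UMIs. Before thinning, 5.91%, 5.05%, 10.7% and 4.69% of all oligodendrocyte-marked nuclei held a Sox5 UMI. Whether the deep ones among them were free of other or joined nuclei was not tested. Most were shallower, with medians of 2052, 1980, 1615 and 1339 UMIs before thinning. Calcrl was found in 16.4%, 14.9%, 6.9% and 8.33% (38.8%, 36.8%, 33.3% and 20.8% before thinning), against 2.96%, 2.81%, 1.70% and 1.67% of the others and 4.39%, 5.94%, 7.59% and 1.82% of the oligodendrocyte-marked nuclei. In female 1 the thinned Calcrl share, 2 of 29 nuclei, lay below that of the oligodendrocyte-marked nuclei, 6 of 79, and is not read as expression. Before thinning, 1.67%, 1.23%, 1.92% and 0.686% of the oligodendrocyte-marked nuclei held a Calcrl UMI, at their lower depth. Penk was found in 23.9%, 36.8%, 13.8% and 12.5% (76.1%, 67.8%, 20% and 45.8% before), against 13.2%, 9.90%, 2.53% and 16.4% of the oligodendrocyte-marked nuclei (16.5%, 17.9%, 4.20% and 19.3% before) and 15.7%, 17.2%, 8.00% and 18.9% of the other GABAergic nuclei. In female 2 the thinned Penk share, 3 of 24 nuclei, lay below both and is not read as expression.

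Values on either side of the threshold are given without a test. In nuclei that met the other conditions of the rule, the male Sox5 level was 101, 267 and 455 CPM at 0, 1 and 2 Prkcd UMIs and 797, 820 and 1280 CPM at 3, 4 and 5 or more. The females differed from each other above the threshold. In female 1 Sox5 stood at 106, 185 and 373 CPM below it and at 836, 650 and 1616 CPM above it, and in female 2 at 76.4, 182 and 314 CPM below and 501, 574 and 352 CPM above. Sox6 stood at 230, 229 and 143 CPM below the threshold and 39.2, 75 and 30.4 CPM above it in male nuclei, and at 212, 371 and 154 CPM and then 24.2, 123 and 5.43 CPM in female ones. It was thus lower on the far side of the threshold, but without a steady fall from step to step. Vipr2 peaked in the males at 2 and 3 UMIs, with 59.2 and 59.3 CPM, and was at 15.7 CPM at 5 or more. At 3, 4 and 5 or more UMIs it stood at 97.4, 117 and 0 CPM in female 1 and at 36.2, 169 and 227 CPM in female 2, so that the females went opposite ways. These female steps hold 4 to 16 nuclei each.

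**Figure D5:**
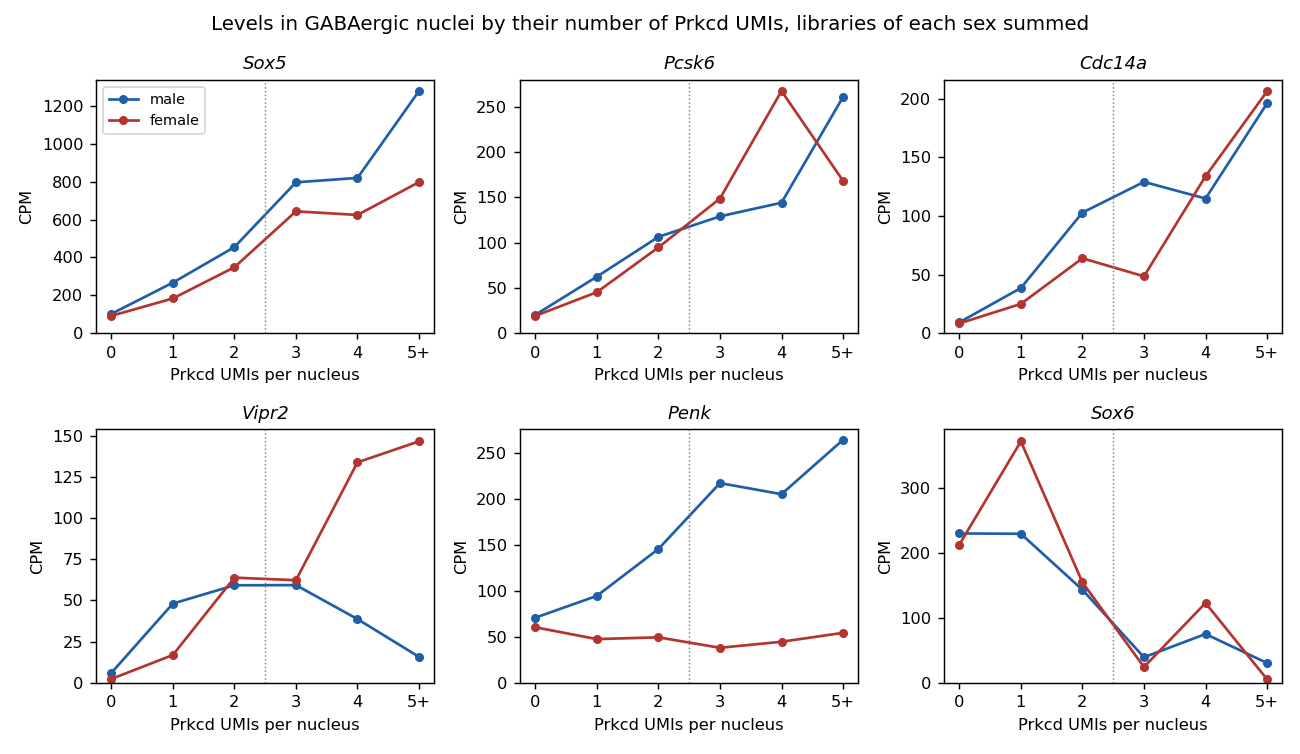
Level (CPM, linear axes from 0) of 6 genes in nuclei that met every other condition of the rule, by their number of Prkcd UMIs, with the 2 libraries of each sex summed; the dotted line marks the threshold of 3 UMIs. Male Sox5 runs from 101 to 1280 CPM and male Penk from 70.8 to 264 CPM, while female Penk lies between 38.1 and 60.3 CPM.

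The genes whose levels followed that of Prkcd most closely were found over clusters, as the Pearson r in log2(CPM + 1) within a library, averaged over the libraries. Over 27 clusters in male 1 and 26 in each of the other libraries, and 7852 genes compared, Cdc14a had the highest mean r, 0.65 (0.71, 0.63, 0.67 and 0.58). Mbnl1 followed with 0.63, then Lrrc1 and Fcho2 with 0.60, Man1a2 and Sec24a with 0.59, Lcorl with 0.57, and Psme4, Arhgap21 and Pdlim5 with 0.56. The clusters of 1 library share its depth, and these values are a description.

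The Prkcd nuclei were next compared with 2 populations taken by the same rule with another gene in place of Prkcd. Nuclei with at least 3 Sst UMIs numbered 63, 46, 7 and 77, and those with at least 3 Drd2 UMIs numbered 117, 127, 82 and 43. These comparisons and the main one share the Prkcd nuclei. The 7 Sst nuclei of female 1 held 44208 UMIs in all, so that 1 UMI stood for 21.7 CPM. Values of that sum rest on few transcripts. Against the Sst nuclei, 338 of 7681 genes were higher (4.4%) and 286 lower (3.72%). Ankfn1 stood at 1103, 814, 1044 and 705 CPM against 261, 190, 174 and 161 CPM (2.15 ± 0.17 SE, adjusted p = 1.85e-07 by edgeR), and Sox5 (2.66), Ano3 (2.65), Dchs2 (2.40) and Hdac9 (2.34) were higher too. Calcrl was also called higher, with 93.0, 85.8, 52.0 and 54.0 CPM against 16.7, 0, 0 and 0 CPM, and with 3 libraries at 0 its fitted fold is no measure of size. Lower were the serotonin receptor gene Htr2c (-2.20), the neuregulin receptor gene Erbb4 (-2.13), Tcf4 (-2.55), Nxph1 (-2.95) and Sox6 (-3.69).

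Sox6 stood at 70.4, 33.7, 73.6 and 6.35 CPM in the Prkcd nuclei and 422, 635, 957 and 468 CPM in the Sst nuclei, and the populations did not overlap. Penk was higher than in the Sst nuclei by 1.38 ± 0.29 SE (adjusted p = 0.0042 by edgeR). Vipr2 was not called (0.11 ± 0.32 SE, adjusted p = 0.921 by edgeR), with 34.8, 48.2, 82.3 and 121 CPM against 60.1, 58.9, 43.5 and 39.5 CPM. Of the other genes named by size, Dnah5 (0.38 ± 0.28 SE, adjusted p = 0.539 by edgeR) and Mob3b (0.44 ± 0.26 SE, adjusted p = 0.415 by edgeR) were not called against Sst nuclei either. Of 10 genes of protein kinase C and related kinases tested here, 3 were higher, among them Prkd1 (2.06) and Prkch (1.29). Without male 1 the number of genes called was 286, without male 2 it was 271, and without female 2 it was 964, against 624.

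Against the Drd2 nuclei, 392 of 9108 genes were higher (4.3%) and 546 lower (5.99%). Sox5 (3.11 ± 0.14 SE, adjusted p = 2.83e-08 by edgeR), Pcsk6 (2.98), Cdc14a (2.94), Dnah5 (5.22) and Vipr2 (5.55) were higher. Vipr2 stood at 0.413 to 4.25 CPM in the Drd2 nuclei, where 1 UMI or a few set the value. Tll2, named by size in the main comparison, was not called against Drd2 nuclei (0.49 ± 0.22 SE, adjusted p = 0.238 by edgeR). Lower were Phactr1 (-2.46), the serotonin receptor gene Htr1f (-2.72), the retinoic acid receptor gene Rarb (-3.32), the phosphodiesterase gene Pde1c (-3.33) and Itpr1 (-1.71). Rarb stood at 29.6, 33.8, 168 and 21.0 CPM in the Prkcd nuclei and 434, 369, 745 and 403 CPM in the Drd2 nuclei. Penk was lower than in the Drd2 nuclei (-0.86 ± 0.20 SE, adjusted p = 0.0126 by edgeR). Prkch (-0.91) and Prkd1 (-0.69), both higher than in GABAergic nuclei at large, were lower here. Signalling genes of striatal projection neurons were lower in 12 of 26 tested and higher in 3. Without male 1 the count was 408 genes and without male 2 it was 509, against 938.

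To ask whether the sexes differed in the number of Prkcd nuclei, their share was taken among nuclei with a Gad1 or Gad2 UMI and none of Slc17a6 and Slc17a7. The male shares were 1.28% (exact Clopper-Pearson 95% interval 0.996 to 1.63) and 1.72% (1.38 to 2.11). The female shares were 0.542% (0.366 to 0.773) and 0.475% (0.305 to 0.706). The mean was 0.991 percentage points higher in the males, and both males lay above both females. With 2 libraries against 2 a two-sided exact permutation test cannot go below p = 0.333, which it gave. The rule reads raw UMIs, and the male libraries were deeper. After each nucleus had been thinned to 3000 UMIs, 5, 8, 4 and 6 nuclei met the rule, or 0.136%, 0.221%, 0.109% and 0.186% of the nuclei left. The libraries of the sexes then overlapped, with a difference of 0.0309 points (exact permutation p = 0.667). Intervals cover counting error only. After thinning they were 0.0441 to 0.316% and 0.0956 to 0.436% in male 1 and male 2. In female 1 and female 2 they were 0.0298 to 0.28% and 0.0682 to 0.404%. With p bounded at 0.333, the permutation test cannot decide whether the share differed between the sexes, before or after thinning. Whether thinning removed the male excess was not tested.

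Between the sexes, the summed Prkcd nuclei differed in 5 of 8605 genes tested by edgeR's quasi-likelihood test (0.0581%), while 1069 had a raw p under 0.05 and DESeq2 called 24. Xist, the RNA that silences an X chromosome, was at 0 in both males and reached 837 and 559 CPM in the female libraries. Eif2s3y, with 143 and 154 CPM, and Uty, with 160 and 140 CPM, both on the Y chromosome, were at 0 in each female. These 3 genes matched the labelled sexes in all 4 libraries, and with a sex at 0 their fitted folds are no measure of size. The other 2 were Tmtc2, with 93.7 and 98.6 CPM against 350 and 469 CPM (log2 difference of male over female -2.22 ± 0.23 SE, adjusted p = 0.0269 by edgeR), and Plpp4, with 11.7 and 8.96 CPM against 88.3 and 92.7 CPM (-3.25 ± 0.34 SE, adjusted p = 0.0269 by edgeR).

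Inside the leading cluster, Tmtc2 values were 49.1, 44.3, 94.8 and 48.1 CPM, against 173, 176, 650 and 586 CPM in the Prkcd nuclei elsewhere. With nuclei of the highest doublet scores removed, the calls of Eif2s3y, Uty, Tmtc2 and Plpp4 were lost and 1 gene was called, Xist. With 1 library left out, 70 genes were called without male 1, 75 without male 2, 847 without female 1 and 560 without female 2. Penk was higher in the males by 2.40 ± 0.30 SE, which did not pass (adjusted p = 0.0735 by edgeR). Of 5 gonadal steroid genes tested, 0 were called, where 0.0581% of all genes tested were. At that share, 0 calls cannot show that these genes did not differ.

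A factor that scales a gene in a whole library cancels when Prkcd nuclei are set against the other GABAergic nuclei of that library, so the difference between the sexes in that difference was tested as an interaction. It was called in 129 of 16988 genes (0.759%), 35 more positive in the males and 94 more positive in the females. With RLE scaling the split was 21 and 112. The median over all genes was 0.14, against 0.01 with DESeq2. The count of genes called was 13 without male 1 and 5 without male 2, against 575 without female 1 and 74 without female 2, and DESeq2 called 12.

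Penk had the smallest p of those more positive in the males. Prkcd nuclei over other GABAergic nuclei, as a log2 ratio, came to 1.40, 1.52, -0.14 and -0.60, so that the male nuclei were enriched in Penk and the female nuclei were not. The difference was 2.01 ± 0.31 SE (adjusted p = 9.07e-08 by edgeR). Over the alternatives it ran from 1.65 to 2.22, with adjusted p from 1.13e-09 to 0.499, and the call was lost without male 2. Inside the leading cluster the selected nuclei held 242, 331, 55.3 and 96.2 CPM of Penk, the female values from 7 and 4 UMIs. The nuclei of that cluster that were not selected held 262, 275, 82.5 and 203 CPM. The sexes thus did not overlap in either part of the cluster, though the value of female 2 in the unselected part came closer to the males.

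In the other direction, the genes with the smallest p included Cpne4, with log2 ratios of -0.87, -1.20, 0.38 and 1.60 (-2.07 ± 0.22 SE, adjusted p = 1.48e-17 by edgeR), Tmtc2, Pld5, Plpp4, Inpp4b and Chat. Cpne4 values were 140, 63.1, 39.5 and 48.1 CPM in Prkcd nuclei of the leading cluster and 87.6, 151, 617 and 659 CPM outside it. Chat and Pld5 lost their calls without female 2. Both were higher in the Prkcd nuclei of female 2, which held 6 nuclei of the Chat-led cluster, than in those of any other library. In the lists, Vipr2 (-2.32) and Prkca (-1.15) were more positive in the females and Prkch (1.60) more positive in the males. Of 10 gonadal steroid genes 0 were called, and of 21 immediate early genes 0, where 0.759% of all genes tested were. At that share, 0 calls cannot show that these genes did not differ. Whether the makeup of the Prkcd nuclei by cluster accounts for these differences was not tested.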

How the data were processed

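Nuclei of 4 droplet single-nucleus RNA libraries, 2 male and 2 female, were read from the deposited counts of UMIs per gene and barcode, which were not normalized. Alignment was to mm10 (GRCm38) with Cell Ranger 6.0.1 and Seurat 5 was used, per the submitters' processing notes; versions 9.0.1 (male files), 7.0.0 (female 1) and 7.2.0 (female 2) stand in the file headers. The 31899 genes shared by all 4 files were used. The members and gene lists were chosen with earlier results of these data known.

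UMIs were summed per library and population, and the sums were fitted with edgeR 4.0.16 in R 4.3.3 (TMM scaling, low-count filter, quasi-likelihood test, library as a term, calls at an adjusted p under 0.05). Sex was fitted in the members' sums alone, and as an interaction with population. Alternatives used DESeq2 1.42.0, RLE scaling, no filter, other thresholds, other reference nuclei and left-out libraries. The fits were tested on simulated data. Named genes were, for the main comparison, the 20 highest and 10 lowest log2 folds among called genes with the same direction in all 4 libraries and a mean of at least 20 CPM where higher, without the rule's, predicted and mitochondrial genes; list genes followed by size or role, and other comparisons by the 10 smallest p in each direction.

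Clusters were made per library in scanpy 1.11.5 (Leiden, resolution 1, 2000 variable genes without the rule's genes). Scrublet's own threshold marked 0, 0, 7.19 and 0% of barcodes, so doublets were kept in the main fits and the highest scores, 7.33 to 8.77% of barcodes, were removed as an alternative. Coordinates are from GENCODE vM21. A few genes are not reported here.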

Additional observations from a re-analysis of the deposited data

Results flagged for a closer look

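The difference between Prkcd and other GABAergic nuclei was itself different between the sexes for the genes below, by the interaction term of edgeR (log2, male minus female). Sex cannot be told apart from depth, software version and gene list.

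Penk led those more positive in the males, at 2.01. Grm8, a glutamate receptor gene, stood at 1.47, and its ratio was negative in all 4 libraries (-0.76, -1.08, -2.40 and -2.30). Nnat (1.29), Hs3st5 (1.19), Plcxd3 (1.17), Thsd7b (1.16), Zfp804b (1.15) and Mgat4c (0.97) followed. Npsr1, the neuropeptide S receptor gene, was at 0 in the Prkcd nuclei of both females, and its fitted 12.56 is no measure of size. Bc1 gave 1.42, with 687 CPM in female 2 and at most 20.5 CPM in the other libraries' Prkcd nuclei. The other GABAergic nuclei of female 2 held 1577 CPM of it, and at most 19.7 CPM in the other libraries. The 13 mitochondrially encoded genes also summed highest in female 2, at 3537 CPM in the Prkcd nuclei and 2986 CPM in the others, against 215 to 463 CPM elsewhere; their part in these differences was not tested.

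More positive in the females were Plpp4 (-2.87), Chat (-2.58), Pld5 (-2.14), Cpne4 (-2.07), Megf11 (-1.99), Tmtc2 (-1.88), St18 (-1.83), Nwd2 (-1.74), Inpp4b (-1.47) and Galntl6 (-1.31). St18 is an oligodendrocyte gene in this tissue's clusters, and Chat marked a cluster with 6 of the 24 Prkcd nuclei of female 2. Without male 2, 18 of these 20 genes lost their calls, and without female 2, 6 did.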

How the results depend on the processing

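The 30 genes named by size in the main comparison kept direction and call under every alternative run. They were picked for large folds in these same sums, so this is no independent support. The direction is that of the fit and not of each library. At 5 or more Prkcd UMIs, Vipr2, among them, stood at 2.58, 24.7, 0 and 227 CPM (unscaled). The other GABAergic nuclei held 9.19, 9.24, 5.01 and 3.51 CPM. Of the 1945 genes called, 1198 were also called by DESeq2, which called 1208; without the library term 633 were called, and with 1 library left out 1110 to 2602. For sex, 5 genes were called, against 24 with DESeq2, 452 without a filter, 1 with Prkcd at 5 or more UMIs, 1 with high doublet scores removed and 70 to 847 with a library left out. For the interaction, 129 were called, against 12 with DESeq2, 24 with Prkcd at 5 or more UMIs, 21 within the members' range of UMIs and 5 to 575 with a library left out. Against Sst nuclei 624 were called, 404 by DESeq2 and 271 to 964 with a library left out. Against Drd2 nuclei 938 were called, 565 by DESeq2 and 408 to 1337 with a library left out. The male excess in share, 0.991 points, was 1.55 at 2 or more Prkcd UMIs, 0.366 at 5 or more, 0.635 of all nuclei and 0.0309 after thinning. The named genes followed under these settings kept their direction, but genes among the other calls did not all do so: of the 129 interaction genes, 115 kept their direction without female 2, 119 with Prkcd at 5 or more UMIs and 124 within the members' range of UMIs, and of 1931 main calls tested with Prkcd at 5 or more UMIs, 1923 did.

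With the replicate number as a block, the sex comparison called 14 genes; libraries of equal number share only that number, and their deviations correlated at r = 0.0376. A left-out library leaves 1 sample in a sex, which is then assumed to vary like the other sex. The females' sums, at 3.84 and 2.90 CPM per UMI, limit the precision.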
